A study of Mus musculus with 18 samples.

Results

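The tenascins (Tnc, Tnn, Tnxb), periostin (Postn), the thrombospondins (Thbs1, Thbs2, Thbs3, Thbs4), Sparc and its relative Sparcl1 were followed in mouse pre-osteoblasts in which the histone methyltransferase EZH2 had been inhibited. The 10 genes were chosen by name, with earlier results of these data known. All 10 were found among the 43346 genes of the expression table. The cells were MC3T3-E1 subclone 4, a line from C57BL/6 mouse calvaria, at passage 9 and on day 3 of culture in osteogenic medium. One arm received 2.5 µM EPZ6438, an inhibitor of EZH2, and the other 0.25% DMSO, the vehicle. Whether the EPZ6438 arm held DMSO too is not stated in the labels. RNA was sequenced in 3 libraries of each arm, with 20023137 to 24140050 reads in genes under EPZ6438 and 18807156 to 25365513 under DMSO. H3K27me3, the repressive mark that EZH2 writes, and H3K4me3, a mark of active promoters, were mapped by chromatin immunoprecipitation, with 2 samples per mark and arm. Their peaks come merged, as a single list for each mark and arm. All results refer to 1 cell line, and nothing in the labels says that the libraries came from separate cultures, so p-values measure the spread between libraries, which may be technical.

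These genes encode matricellular proteins, secreted glycoproteins that sit in the extracellular matrix and tune how cells attach and respond to growth factors rather than bearing load. Tenascins and thrombospondins are large proteins built from repeated modules, periostin carries fasciclin domains, and SPARC proteins bind collagen and calcium. In bone, SPARC is also called osteonectin and is among the abundant proteins of the matrix other than collagen. Periostin was first isolated from MC3T3-E1 cells as osteoblast-specific factor and is known for its place in the periosteum and the periodontal ligament. EZH2 is the catalytic subunit of Polycomb repressive complex 2, which trimethylates histone H3 at lysine 27 and is known to keep developmental genes silent.

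RNA levels are given in RPKM, a read count scaled to gene length in kilobases and to the library's total in genes, so they can be compared between genes. Changes are log2 differences of RPKM + 0.1, EPZ6438 minus DMSO, tested with limma, and a gene passed at a Benjamini-Hochberg adjusted p under 0.05 over all 14213 genes tested. Of the 10 genes 9 had enough reads to be tested. Tnc, Tnn and Sparc rose, Postn and Sparcl1 fell, and Tnxb, Thbs1, Thbs2 and Thbs3 did not pass. Over all genes tested 7.04% passed, 3.8% rising and 3.24% falling. The count of 5 dropped to 2 or 3 without EPZ6438 replicate 1, 2 or 3 or DMSO replicate 2, and the 1001 genes behind the 7.04% dropped to 309 to 381 in the same fits. The values of the arms did not overlap in 7 of the 9 genes, against 26.7% of all genes tested. The median log2 change of the 9 genes was 0.09, against -0.03 over all genes tested. Because the 10 genes were chosen with earlier results of these data known, these shares are no test of them.

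Ezh2 itself was at 14.8 ± 0.676 RPKM in EPZ6438 and 14.4 ± 1.79 RPKM in DMSO (SD, n = 3 each; limma adjusted p = 0.839). The drug acts on the enzyme, so this RNA level is no check of the labels. The H3K27me3 lists held 20764 peaks under EPZ6438 and 143399 under DMSO, and the H3K4me3 lists 16216 and 40113. Osteoblast markers were plainly present, and 6 of 7 rose, against 3.8% of all genes tested. Their summed level was 3331 to 4514 RPKM in EPZ6438 and 1660 to 3349 RPKM in DMSO. These ranges overlap, and most of each sum is Col1a1, the marker that did not pass (2955 ± 602 RPKM in EPZ6438 and 2169 ± 860 RPKM in DMSO, SD, n = 3 each, limma adjusted p = 0.410). Endothelial markers summed to at most 0.0532 RPKM in EPZ6438 and 0.0683 RPKM in DMSO, with Cdh5, Emcn and Kdr at 0. Adipocyte markers summed to at most 0.101 RPKM in EPZ6438 and 0.239 RPKM in DMSO.

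**Figure D1:**
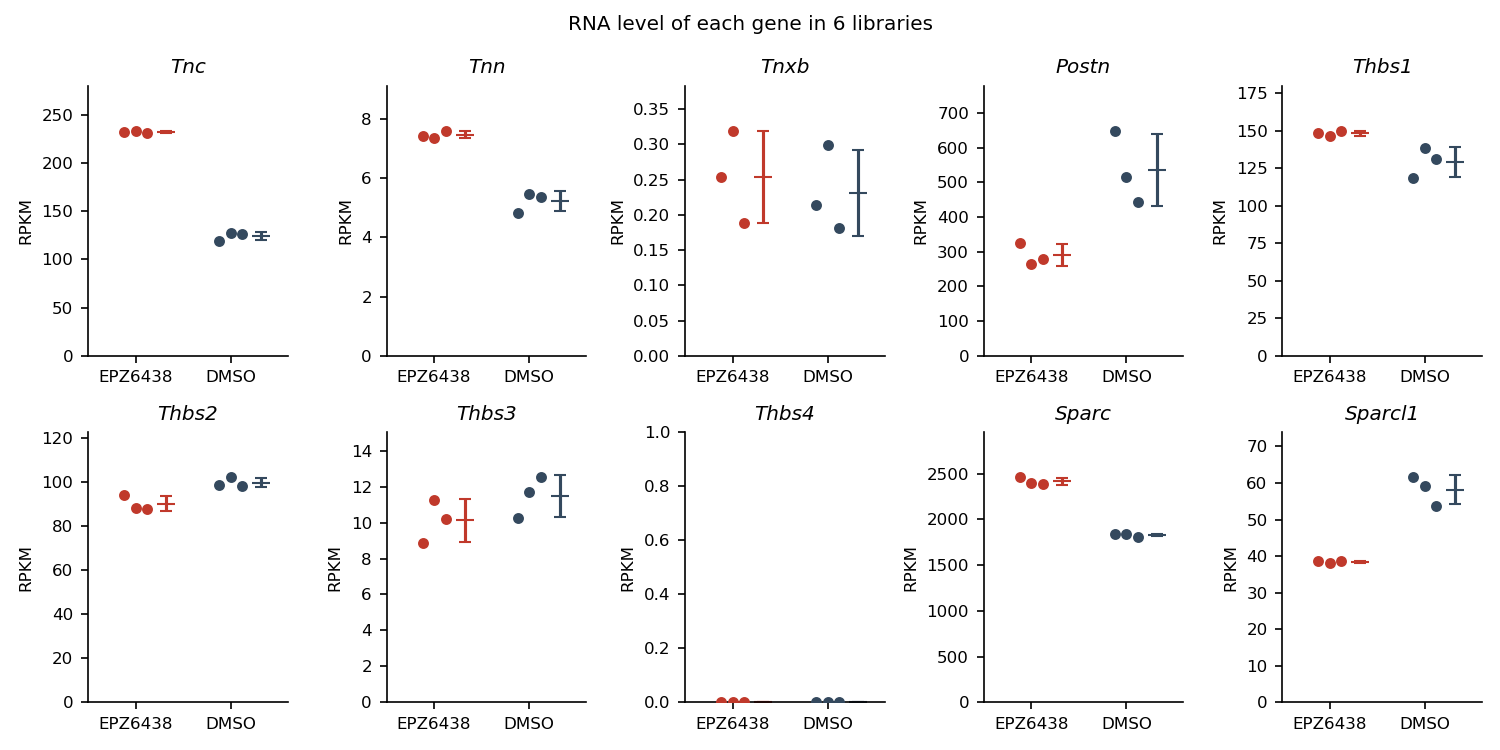
RNA level of the 10 genes in RPKM (vertical axes, each from 0). Points are the 3 libraries of EPZ6438 (red, left) and of DMSO (dark, right), and bars give mean ± SD; in Tnc, Tnn, Thbs1 and Sparc every EPZ6438 point lies above every DMSO point, and in Postn, Thbs2 and Sparcl1 below.

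Tenascin-C, a glycoprotein that loosens cell adhesion and is laid down where bone and periosteum grow, rose most. Tnc (ENSMUSG00000028364, mm10 chromosome 4, 63959785 to 64047015) was at 232, 233 and 231 RPKM in the EPZ6438 libraries and at 119, 127 and 127 RPKM in the DMSO libraries. The EPZ6438 libraries lay close together and all well above those of DMSO. The means were 232 ± 1.25 RPKM in EPZ6438 and 124 ± 4.41 RPKM in DMSO (SD, n = 3 each), 1.87-fold higher in EPZ6438 (log2 change 0.90, SE 0.07, limma adjusted p = 0.000749). Between 17432 and 43758 reads per library stood behind these values. The call held in all 15 alternative settings, with adjusted p from 0.000177 to 0.0129.

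Tenascin-W, encoded by Tnn and known from developing bone and its periosteum, was far less abundant and rose too. Tnn (ENSMUSG00000026725, chromosome 1, 160085029 to 160153580) was at 7.42, 7.36 and 7.59 RPKM in EPZ6438 and 4.83, 5.47 and 5.36 RPKM in DMSO. No DMSO library reached the lowest EPZ6438 library. The means were 7.46 ± 0.120 RPKM in EPZ6438 and 5.22 ± 0.344 RPKM in DMSO (SD, n = 3 each; log2 change 0.51, SE 0.10, limma adjusted p = 0.0257). The call was lost without EPZ6438 replicate 1, 2 or 3 or DMSO replicate 2 (adjusted p from 0.0973 to 0.137), while the log2 change stayed between 0.45 and 0.54 with any 1 library left out.

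Tenascin-X, a tenascin of collagen-rich connective tissue such as skin, was barely present as RNA. Tnxb (ENSMUSG00000033327, chromosome 17, 34670535 to 34719815) had 65, 94 and 46 reads in EPZ6438 and 49, 81 and 56 reads in DMSO. These counts gave 0.253, 0.319 and 0.188 RPKM in EPZ6438 and 0.213, 0.299 and 0.181 RPKM in DMSO. The arms overlapped throughout. The log2 change was 0.09 with a 95% interval from -0.45 to 0.64 (limma adjusted p = 0.863), which leaves room for a change in either direction.

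Periostin fell, while Tnc and Tnn rose. Postn (ENSMUSG00000027750, chromosome 3, 54361109 to 54391034) was at 326, 266 and 278 RPKM in EPZ6438 and at 648, 516 and 444 RPKM in DMSO. The DMSO libraries were spread over a wide range, and all of them stood above the highest EPZ6438 library. The means were 289.8 ± 31.6 RPKM in EPZ6438 and 536 ± 103 RPKM in DMSO (SD, n = 3 each), 0.541 times the DMSO level (log2 change -0.87, SE 0.15, limma adjusted p = 0.0175). The SD was 10.9% of the mean in EPZ6438 and 19.3% in DMSO, the widest relative spread among the genes above 20 RPKM. The call was lost with no filter on low values (adjusted p = 0.0552) and without EPZ6438 replicate 2 or 3 or DMSO replicate 2 (0.0767 to 0.0894).

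Sparc was the most abundant of the 10 in both arms. Sparc (ENSMUSG00000018593, chromosome 11, 55394500 to 55420080) was at 2457, 2400.2 and 2386 RPKM in EPZ6438 and at 1836, 1839 and 1811 RPKM in DMSO. By mean RPKM it ranked 5 of 43309 genes outside the mitochondrial genome in EPZ6438 and 7 in DMSO. The means were 2414 ± 37.8 RPKM in EPZ6438 and 1829 ± 15.4 RPKM in DMSO (SD, n = 3 each), 1.32-fold higher in EPZ6438 (log2 change 0.40, SE 0.09, limma adjusted p = 0.0412). The libraries lay close together within each arm, and the arms did not overlap. The call was lost without any 1 library other than DMSO replicate 1 (adjusted p from 0.0637 to 0.176), with a pseudocount of 1 RPKM (0.0528) and with no filter (0.381).

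Sparcl1, which encodes hevin, an anti-adhesive relative of SPARC, fell while Sparc rose. Sparcl1 (ENSMUSG00000029309, chromosome 5, 104079111 to 104114088) was at 38.7, 38.2 and 38.6 RPKM in EPZ6438 and at 61.5, 59.1 and 53.8 RPKM in DMSO. The arms did not overlap. The means were 38.5 ± 0.268 RPKM in EPZ6438 and 58.1 ± 3.94 RPKM in DMSO (SD, n = 3 each), 0.662 times the DMSO level (log2 change -0.59, SE 0.08, limma adjusted p = 0.00549). The call held in all 15 alternative settings, with adjusted p from 0.00241 to 0.0474.

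None of the 3 thrombospondin genes tested passed. Thbs1 encodes an activator of latent TGF-beta that also inhibits vessel growth, and Thbs2 a close relative that likewise inhibits vessel growth. Thbs1 (ENSMUSG00000040152, chromosome 2, 118111876 to 118127133) was at 149, 147 and 149.9 RPKM in EPZ6438 and 118, 138 and 131 RPKM in DMSO. Thbs2 (ENSMUSG00000023885, chromosome 17, 14665500 to 14694262) was at 94.4, 88.4 and 88.0 RPKM in EPZ6438 and 98.8, 102 and 98.2 RPKM in DMSO. In both genes the arms were apart, with EPZ6438 higher for Thbs1 and lower for Thbs2. Neither passed. The log2 change of Thbs1 was 0.20 (95% interval 0.01 to 0.39, limma adjusted p = 0.212) and that of Thbs2 -0.14 (95% interval -0.30 to 0.01, adjusted p = 0.288).

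Thbs3 and Thbs4 belong to the branch of the family that assembles into pentamers, together with cartilage oligomeric matrix protein. Thbs3 (ENSMUSG00000028047, chromosome 3, 89215180 to 89226837) was at 8.89, 11.3 and 10.2 RPKM in EPZ6438 and 10.2, 11.7 and 12.5 RPKM in DMSO, with overlapping arms (log2 change -0.18, 95% interval -0.47 to 0.11, limma adjusted p = 0.472). Its body lies wholly within that of Mtx1, a mitochondrial import gene that was at 7.87, 10.8 and 9.19 RPKM in EPZ6438 and 7.48, 8.45 and 10.2 RPKM in DMSO. Whether counting used strand is not given in the sources used here, so reads of the 2 genes may not have been kept apart, and the level of Thbs3 is uncertain. Noncoding transcripts also overlap Tnc, Thbs1 and Sparcl1, and none of them had more than 18 reads in a library. A small nuclear RNA gene and a pseudogene overlap Tnxb, with 0 reads in every library. Thbs4 (ENSMUSG00000021702, chromosome 13, 92751590 to 92794818), known from tendon and muscle, had 0 reads in all 6 libraries. A count of 0 allows up to 3 reads, or 0.0455 RPKM in the shallowest EPZ6438 library and 0.0485 RPKM in the shallowest DMSO library, so Thbs4 was not detectable at this depth. Reads carry no molecular identifiers, and such floors cover counting error only.

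**Figure D2:**
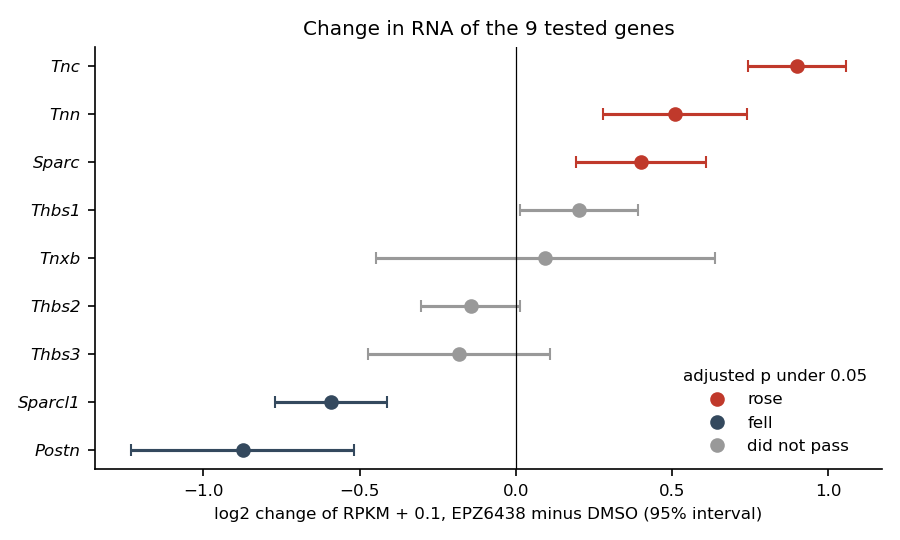
Log2 change of RPKM + 0.1, EPZ6438 minus DMSO (horizontal axis), of the 9 genes tested, with 95% intervals from the limma fit. Tnc, Tnn and Sparc (red) rose, Postn and Sparcl1 (dark) fell, and the 4 genes in grey did not pass.

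The order of the levels differed between arms at 1 place. In EPZ6438 it ran Sparc, Postn, Tnc, Thbs1, Thbs2, Sparcl1, Thbs3, Tnn, Tnxb and Thbs4, and no neighbours overlapped. In DMSO Thbs1 stood above Tnc by mean (129 and 124 RPKM), but the libraries of these neighbours overlapped. Tnc was thus level with Thbs1 within the spread in DMSO and above it in every EPZ6438 library. Ratios taken within a library do not depend on scaling. Tnc over Postn was 0.712, 0.878 and 0.829 in EPZ6438 and 0.184, 0.246 and 0.286 in DMSO. Sparc over Sparcl1 was 63.4, 62.8 and 61.9 in EPZ6438 and 29.8, 31.1 and 33.7 in DMSO. Thbs1 over Thbs2 was 1.58, 1.66 and 1.70 in EPZ6438 and 1.20, 1.35 and 1.34 in DMSO. In each of these 3 ratios every EPZ6438 library lay above every DMSO library. That separation follows from the levels given above, with the upper gene higher and the lower gene lower in every EPZ6438 library, and adds nothing to them. The ratios were chosen after the values were seen and are a description, and no test of them is used here.

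The genes whose pattern over the 6 libraries was most like that of Tnc, by Pearson's r of log2(RPKM + 0.1), were Spns2 (r = 0.999), Pxdc1 (r = 0.999) and Pdzd2 (r = 0.999). With 14213 genes and libraries that fall into 2 arms, such values describe a shared step between arms and little more. Spns2 averaged 7.73 RPKM in EPZ6438 and 2.69 RPKM in DMSO, and Pxdc1 19.9 and 11.4 RPKM.

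Relatives of the 10 genes in the same protein families also moved in both directions. Of 7 paralogs tested of 9 listed, 2 rose and 1 fell, with a median log2 change of 0.44. For comparison, 7.04% of all genes tested passed, with a median of -0.03. Tgfbi, the closest relative of periostin, was at 11.8 ± 0.942 RPKM in EPZ6438 and 6.59 ± 0.509 RPKM in DMSO (SD, n = 3 each; log2 change 0.83, SE 0.11, limma adjusted p = 0.00538). Tgfbi thus rose while Postn fell. Smoc2, a calcium-binding member of the SPARC family, was at 1.06 ± 0.203 RPKM in EPZ6438 and 0.173 ± 0.0940 RPKM in DMSO (log2 change 2.13, adjusted p = 0.00564). It had 65, 58 and 71 reads in EPZ6438 and only 15, 8 and 8 in DMSO. The size of its change is therefore uncertain, with a log2 change of 2.65 at a pseudocount of 0.01 RPKM and 0.81 at 1 RPKM. Fstl1, a secreted member of that family, fell to 133 ± 7.79 RPKM in EPZ6438, against 208 ± 19.8 RPKM in DMSO (log2 change -0.64, adjusted p = 0.00918). The call of Fstl1 was lost without EPZ6438 replicate 2 or 3 or DMSO replicate 2 (adjusted p from 0.0502 to 0.0589).

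Among the receptors through which these proteins act, most did not pass. Of 18 tested of 23 listed, 3 rose and 0 fell, with a median log2 change of 0.10. All genes tested had 7.04% passing and a median of -0.03. Stab1, which encodes stabilin-1, a scavenger receptor that takes up SPARC, was at 1.78 ± 0.110 RPKM in EPZ6438 and 0.463 ± 0.110 RPKM in DMSO (SD, n = 3 each; log2 change 1.76, SE 0.19, limma adjusted p = 0.00285). Itga9, an integrin subunit that binds tenascin-C, was at 4.22 ± 0.0924 RPKM in EPZ6438 and 2.04 ± 0.177 RPKM in DMSO (log2 change 1.02, adjusted p = 0.00373). Sdc4, a heparan sulfate proteoglycan of the cell surface, was at 60.2 ± 1.04 RPKM in EPZ6438 and 46.7 ± 3.05 RPKM in DMSO (log2 change 0.37, adjusted p = 0.0316), a call lost with no filter and without any 1 library other than DMSO replicate 1 (adjusted p from 0.0501 to 0.166). Cd47, the broadly expressed thrombospondin receptor, was singled out after its values were seen and was at 20.8 ± 3.07 RPKM in EPZ6438 and 23.9 ± 3.65 RPKM in DMSO (adjusted p = 0.501).

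Most collagens and other matrix partners did not pass. Of 16 tested of 17 listed, 0 rose and 1 fell, with a median log2 change of -0.07. That count is near the 7.04% passing among all genes tested, whose median was -0.03. Dcn, which encodes decorin, a small proteoglycan of collagen fibrils, fell to 356 ± 22.8 RPKM in EPZ6438, against 553 ± 108 RPKM in DMSO (SD, n = 3 each; log2 change -0.62, limma adjusted p = 0.0471), a call lost with no filter, with a filter at 1 RPKM, and without EPZ6438 replicate 1, 2 or 3 or DMSO replicate 2 (adjusted p from 0.0581 to 0.175). Of 15 TGF-beta and mechanical regulators, all tested, 0 rose and 1 fell, with a median log2 change of -0.09. This count too is near the share over all genes tested. Tgfbr2, the type II TGF-beta receptor, fell to 53.2 ± 2.06 RPKM in EPZ6438, against 81.3 ± 3.24 RPKM in DMSO (log2 change -0.61, SE 0.07, adjusted p = 0.00366).

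Some markers of neighbouring cell types moved beside these genes, where 7.04% of all genes tested passed. Of 3 chondrocyte markers tested of 5, 2 rose, with a summed level of 83.4 to 112 RPKM in EPZ6438 and 15.0 to 25.5 RPKM in DMSO, and Acan was at 0. Of 3 tendon markers tested of 5, none passed, with summed levels of 320 to 334 RPKM in EPZ6438 and 334 to 360 RPKM in DMSO. Of 4 smooth muscle markers tested of 5, 1 rose and 1 fell, with sums of 1625 to 1649 RPKM in EPZ6438 and 2157 to 2296 RPKM in DMSO. Of 3 Schwann cell markers tested of 5, 1 fell, with sums of 13.5 to 14.7 RPKM in EPZ6438 and 24.4 to 27.9 RPKM in DMSO, and Sox10 was at 0. Of 3 blood cell markers tested of 5, none passed, with sums of 18.8 to 21.6 RPKM in EPZ6438 and 15.6 to 18.5 RPKM in DMSO. Most of each sum is 1 gene. By mean RPKM in EPZ6438 and DMSO these were Col2a1 (91.0 and 14.6), Fmod (316 and 337) and Acta2 (1510 and 2097). For Schwann and blood cells they were S100b (12.9 and 25.1) and Lyz2 (18.5 and 15.6). The sums therefore do not show that cells of these types were present. The part of such shifts in the RNA changes above was not tested. In RNA from whole cultures, fewer cells of a type and less RNA per cell cannot be told apart.

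The marks over these genes were read from the merged peak lists as peaks within the gene body or 10 kb to each side, in mm10. The lists hold positions only, with no height and no replicates, so they allow counts but no test. H3K27me3 peaks lay in the windows of 3 of the 10 genes under EPZ6438 and 7 of 10 under DMSO. Among all protein-coding genes the shares were 21.3% and 64.1%, so neither count stands far from the background. With peaks of at least 400 bp the counts were 1 gene, Tnxb, under EPZ6438 and 5 genes under DMSO. The number of H3K27me3 peaks in the 10 windows was 6 under EPZ6438 and 39 under DMSO, and they covered 3266 and 20460 bp. An EPZ6438 peak overlapped 4 of these 39 DMSO peaks, or 10.3%, against 10.8% in the whole DMSO list.

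**Figure D3:**
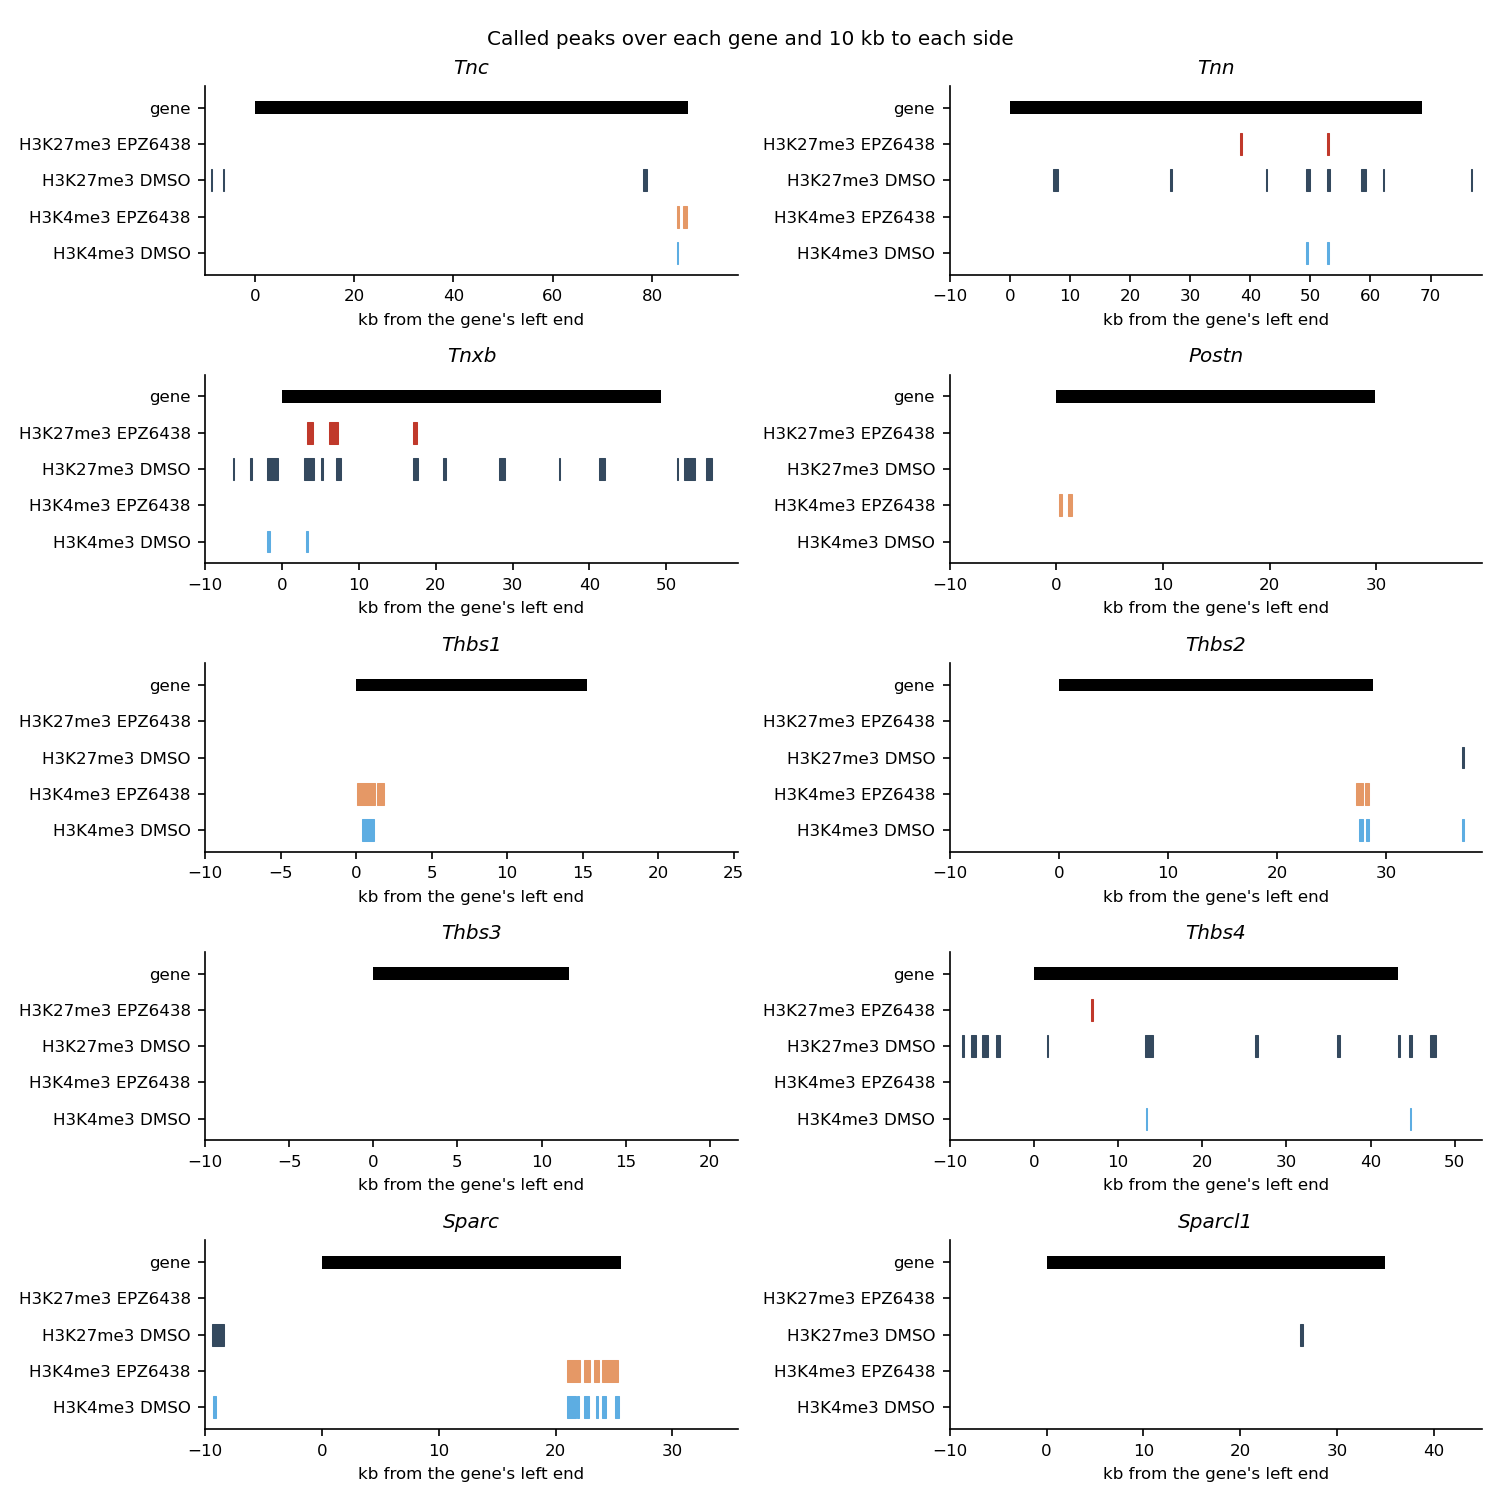
Peaks of the 4 merged lists over each gene (black bar) and 10 kb to each side, in kb from the gene's left end in mm10 (horizontal axes), drawn to scale with a thin outline. H3K27me3 under DMSO is dense over Tnn, Tnxb and Thbs4, and the wide blocks of H3K4me3 lie at 1 end of Sparc, Thbs1, Thbs2 and Tnc.

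The H3K27me3 peaks were gathered on the 3 genes with the least RNA. Tnxb had 3 peaks under EPZ6438 and 14 under DMSO, covering 2559 and 9113 bp. Thbs4 had 1 peak under EPZ6438 and 11 under DMSO, covering 185 and 5081 bp. Tnn had 2 peaks under EPZ6438 and 8 under DMSO, covering 522 and 3507 bp. In DMSO these numbers exceeded those of 94.3%, 91.9% and 87.4% of protein-coding genes. A longer window can hold more peaks, and the median gene span was 32452 bp over the 10 genes and 16345 bp over protein-coding genes, a difference these percentages do not correct for. Across all 2778 protein-coding genes with 8 or more DMSO H3K27me3 peaks in the window the median level in DMSO was 0.00152 RPKM, against 3.84 RPKM for the 7910 genes with 0. Tnn, at 5.22 RPKM in DMSO, thus had both many peaks and measurable RNA, as 9.25% of those 2778 genes had at least 1 RPKM.

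RNA rose in 1 of these 3 genes. Thbs4 had 0 reads in every library although only 1 peak was called under EPZ6438, and that peak overlapped none of the 11 DMSO peaks. Tnxb stayed near 0.25 RPKM, while the 3 peaks under EPZ6438, at 34673735 to 34674587, 34676645 to 34677809 and 34687598 to 34688138 on chromosome 17, lay within the gene and all overlapped peaks of DMSO. The DMSO peaks 5' of the Tnxb start, the widest from 34668633 to 34670000, had no counterpart under EPZ6438. Tnn was the gene whose RNA rose, and 1 of its 2 EPZ6438 peaks overlapped a DMSO peak.

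Thbs4 was the only gene of the 8 with a promoter sequence in RefSeq (GRCm38.p6, the assembly of mm10) in which a peak of any list overlapped the promoter, taken as 250 bases before to 50 after the gene's start. The DMSO H3K27me3 peak there spanned 181 bp, from 92794884 to 92795064 on chromosome 13. The promoter held 24 CG pairs and 72.0% G and C, against medians of 7 and 52.7% over 32851 promoters, and the windows of the other 7 genes held 4 to 10 CG pairs. RefSeq gives Tnc and Postn a pair of starts each, and the window used is the one nearest to the start in the expression table. The Thbs4 promoter is shown with those of Tnc and Postn, the 2 genes that changed most in RNA, which held 10 and 5 CG pairs. In Thbs4, capitals mark the bases under the DMSO H3K27me3 peak. In Tnc and Postn, capitals mark CG pairs. All are given 5′ to 3′ on the strand of the gene.
Thbs4 (chr13:92794769-92795068, minus strand): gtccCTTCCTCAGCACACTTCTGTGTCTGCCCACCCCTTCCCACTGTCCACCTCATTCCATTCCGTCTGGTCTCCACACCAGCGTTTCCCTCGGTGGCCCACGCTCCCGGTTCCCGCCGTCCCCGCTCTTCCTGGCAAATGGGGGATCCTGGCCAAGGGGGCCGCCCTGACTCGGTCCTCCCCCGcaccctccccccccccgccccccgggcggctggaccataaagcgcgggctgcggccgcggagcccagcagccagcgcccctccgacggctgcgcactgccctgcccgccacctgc
Tnc (chr4:64046966-64047265, minus strand): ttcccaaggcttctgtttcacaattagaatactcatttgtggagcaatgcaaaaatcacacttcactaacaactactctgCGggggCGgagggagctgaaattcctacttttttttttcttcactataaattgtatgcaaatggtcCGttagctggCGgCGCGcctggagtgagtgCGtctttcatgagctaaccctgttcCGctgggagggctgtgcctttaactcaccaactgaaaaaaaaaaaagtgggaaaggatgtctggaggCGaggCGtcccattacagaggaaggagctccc
Postn (chr3:54360857-54361156, plus strand): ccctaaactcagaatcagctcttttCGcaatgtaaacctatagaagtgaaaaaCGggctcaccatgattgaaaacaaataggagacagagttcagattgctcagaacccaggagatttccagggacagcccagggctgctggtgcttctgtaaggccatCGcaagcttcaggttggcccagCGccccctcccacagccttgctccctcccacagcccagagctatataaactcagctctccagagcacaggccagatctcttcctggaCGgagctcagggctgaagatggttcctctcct
A search of both strands for the letters TATAAA found them at -26 in this Postn promoter and at -126 in those of Tnc and Thbs2, with the first base of the gene as 0, and 13.6% of the 32851 promoters hold these letters. Such a match describes the letters and is no evidence of a bound factor.

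Under EPZ6438, H3K4me3 peaks lay on the 5 genes with the most RNA. They lay in the windows of 5 of the 10 genes under EPZ6438 and 7 under DMSO, against 51.7% and 61.1% of protein-coding genes. With peaks of at least 400 bp the order turned, with 4 genes under EPZ6438 and 2 under DMSO. There were 12 peaks covering 7706 bp under EPZ6438 and 18 peaks covering 5742 bp under DMSO. The whole lists ran the other way, covering 8.22 Mb under EPZ6438 and 10.4 Mb under DMSO, with median peak widths of 401 and 212 bp. Over Sparc, 4 peaks covered 3471 bp under EPZ6438 and 7 peaks covered 2562 bp under DMSO, and those in the gene began 239 and 162 bp downstream of the gene's start and reached more than 4 kb into it. The widest, 1366 bp, ran from 55418476 to 55419841 on chromosome 11 under EPZ6438.

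Tnc and Postn had more bases under H3K4me3 peaks in EPZ6438 than in DMSO, as did Thbs1, Thbs2 and Sparc. Peaks of the whole EPZ6438 list were wider too, with a median of 401 bp against 212 bp. Over Tnc, 2 peaks covered 1140 bp under EPZ6438, the nearer 288 bp downstream of the start, and 1 peak covered 186 bp under DMSO, 1920 bp downstream. Over Postn, 2 peaks covered 557 bp under EPZ6438, the nearer 278 bp downstream of the start, and 0 peaks were called under DMSO. Postn was the 1 gene of the 10 with H3K4me3 under EPZ6438 alone, against 7.64% of protein-coding genes, and its RNA was lower in EPZ6438. Its peaks were 229 and 328 bp wide, and with peaks of at least 400 bp Tnc and Thbs2 were the genes with H3K4me3 under EPZ6438 alone. Without heights, a peak missing from a list does not show that the mark was absent.

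Thbs1 and Thbs2 carried H3K4me3 at 1 end in both arms. Thbs1 had 2 peaks covering 1612 bp under EPZ6438 and 1 peak covering 822 bp under DMSO. Thbs2 had 2 peaks covering 926 bp under EPZ6438 and 3 covering 761 bp under DMSO, and in both arms the nearest lay 382 or 384 bp downstream of the start. Sparcl1, at 38.5 RPKM in EPZ6438 and 58.1 RPKM in DMSO, had no H3K4me3 peak in either arm, and Thbs3 had no peak of either mark in either arm.

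**Figure D4:**
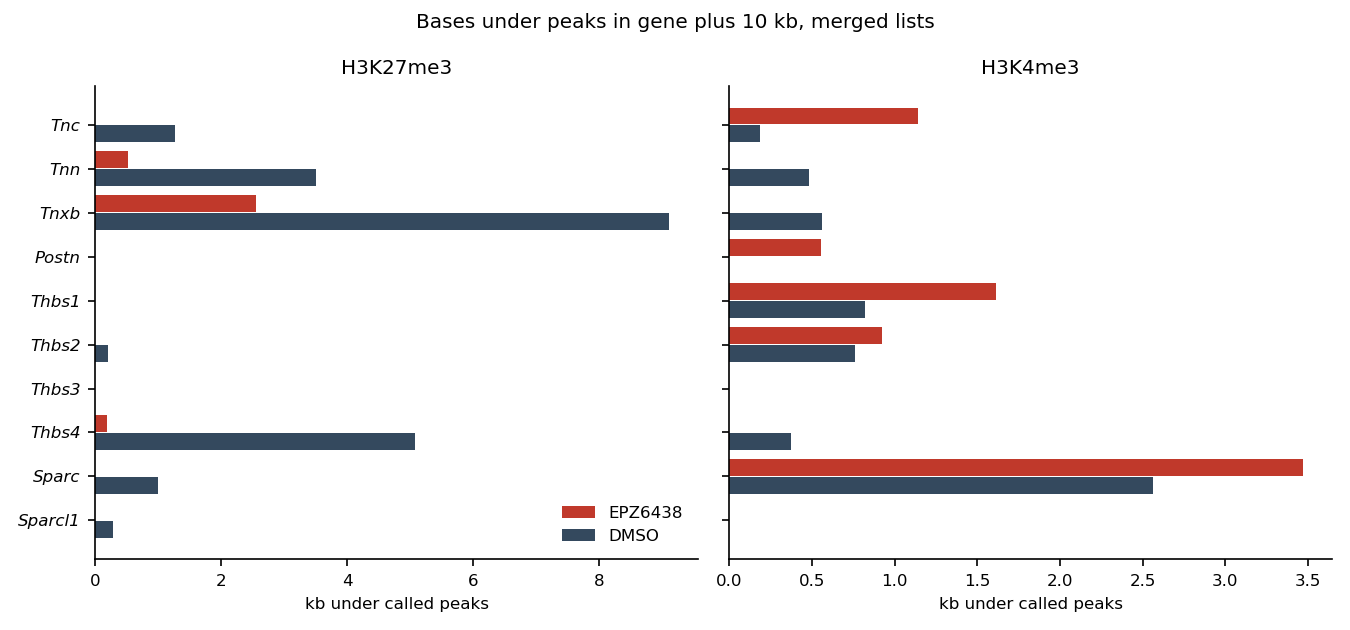
Length in kb (horizontal axes, from 0) under H3K27me3 peaks (left) and H3K4me3 peaks (right) within each gene and 10 kb to each side, for the merged EPZ6438 list (red, upper bar) and DMSO list (dark, lower bar). For H3K27me3 no gene had more bases under EPZ6438, while for H3K4me3 Tnc, Postn, Thbs1, Thbs2 and Sparc did.

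Some of the DMSO H3K4me3 peaks lay on H3K27me3 peaks of the same arm. Merged lists without heights cannot show whether both marks sat on the same chromatin, so these overlaps are not read as bivalent. The narrowest peaks of the whole DMSO H3K4me3 list were 177 bp wide. Over the 10 genes 0 of 12 EPZ6438 H3K4me3 peaks and 8 of 18 DMSO H3K4me3 peaks did so, against 0.968% and 48.0% of the whole lists. The 8 lay at Tnn, Tnxb, Thbs4, 5' of Thbs2 (-8347 to -8140 bp from its start) and beyond the 3' end of Sparc, and were 177 to 372 bp wide. None of the 8 was overlapped by an EPZ6438 H3K4me3 peak, while each of the other 10 was. Over the whole DMSO list the shares overlapped were 1.42% with H3K27me3 and 44.2% without. Tnn, Tnxb and Thbs4 therefore had H3K4me3 peaks under DMSO alone, as 17.0% of protein-coding genes did, and in all 3 these peaks were among those on H3K27me3. Tnc, Thbs2, Sparc and Sparcl1 had H3K27me3 peaks under DMSO alone, as did 42.9% of protein-coding genes, and 0 of the 10 had them under EPZ6438 alone, against 0.182%. Thbs2 and Sparc each had only 1 such peak, outside the gene body and more than 5 kb from it.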

How the data were processed

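Expression values were deposited by the authors as RPKM per gene and library, per the file headers. Peaks were deposited as positions, from merged samples set against their own arm's input, per the file names. The submitters' processing notes name, without roles, build mm10 and the tools STAR 2.6.1c, Subread, MACS2, HOMER, DiffBind, Picard, FastQC and bcl2fastq. The sources used here do not give caller thresholds, the strand setting or how samples were merged.

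RPKM times gene length plus 1 base returned whole reads for 100% of values (tolerance 0.001). A gene was tested if 3 or more libraries had 10 or more reads. The test was limma 3.58.1 in R 4.3.3 (trend, two-sided, no block) on log2(RPKM + 0.1), which understates changes of low genes, with Benjamini-Hochberg adjustment over all tested genes. Pairs of replicates differed by more than counting noise, with a chi-square of 6.53 to 62.4 per gene. BED starts were raised by 1, and a peak counted if at least 1 bp lay in the gene plus 10 kb. Promoters came from RefSeq, GRCm38.p6.

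Genes named are the 10 members, up to 4 passing genes of each list by smallest adjusted p, Ezh2, and the 3 genes most like the member with the smallest adjusted p. Outside this rule, and after their values were seen, Cd47 and Mtx1, which overlaps Thbs3, were named. So were Col1a1, Col2a1, Fmod, Acta2, S100b, Lyz2 and the markers at 0. The members and lists were chosen with earlier results of these data known. On simulated reads, with the same spread for every gene, the test recovered 40% of 1.5-fold and 90% of 2-fold changes. Of its calls there 5.71% were false. A gene that did not pass may therefore still have changed. The simulated reads were drawn independently for each gene and library, so these shares may not hold for the real libraries. Alternatives covered filters, pseudocounts, scaling, voom, a replicate block, each library left out, and peak windows.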

Additional observations from a re-analysis of the deposited data

How the results depend on the processing

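The count of all genes that passed, 1001, became 628 with no filter on low values, and 309 to 1003 with 1 library left out, with 309 to 381 without EPZ6438 replicate 1, 2 or 3 or DMSO replicate 2. It was 1240 with voom. The count among the 10 genes, 5, became 3 with no filter, with Tnc, Tnn and Sparcl1 passing, and 2 to 5 with 1 library left out. Tnc and Sparcl1 passed in every setting run. The count among the listed paralogs, receptors, partners and regulators, 8, became 13 with voom and 5 to 10 with 1 library left out. Tnxb, which never passed, had a log2 change between -0.0376 and 0.24 with 1 library left out, the lowest without EPZ6438 replicate 2, and -0.0170 without DMSO replicate 3. Ezh2 lay between -0.0379 and 0.14, the lowest without DMSO replicate 3. The causes were not tested.

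Same-numbered libraries deviated together with r of 0.410, 0.0781 and 0.0561, and EPZ6438 replicate 2 went best with DMSO replicate 3 (r = 0.331), so the replicate numbers were not taken as pairs. A replicate block gave 1051 genes and 12 listed genes, and 4 of the 10 genes, with Sparc lost (adjusted p = 0.0694). With peaks of at least 400 bp, H3K27me3 lay at 1 gene under EPZ6438 and 5 under DMSO, and H3K4me3 at 4 under EPZ6438 and 2 under DMSO. With the gene body only or 5 kb to each side, H3K27me3 lay at 5 genes under DMSO instead of 7. The remaining counts did not change with the other windows and overlaps run. A planned quasi-likelihood test on recovered reads is not reported here, and voom was the fit kept on those reads. Depth limits Tnxb and Thbs4 most, and the depth behind the peak lists is unknown.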
